A study of Mus musculus with 12 samples.

Results

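The imprinted growth genes *H19*, *Igf2*, *Mest*, *Plagl1*, *Dlk1*, *Meg3*, *Peg3*, *Cdkn1c*, *Grb10* and *Igf2r* were followed in tibialis anterior (TA) muscle of mouse before and after birth. These 10 genes are a named list, taken from the 55450 genes of the count table, and all 10 had enough reads to be among the 19276 genes tested. *Plagl1* and *Mest* were selected on measured values, namely large falls with age already seen in these libraries. Values that include the E18.5 mice are therefore given for all 10 as a description with no test, and *Plagl1* and *Mest* have no test in any interval. The other 8 were tested between 2 and 7 weeks (wks), an interval that their choice is not known to have used. The whole list was still drawn up with earlier results of these data known, so these tests may not be independent of that choice.

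RNA was sequenced from TA muscle of 12 mice, 4 late embryos (E18.5), 4 at 2 wks and 4 at 7 wks after birth. All groups carried the WT genotype on the background that the labels write as 129Pas and the study's methods as 129SvPas, with no treatment named in the labels, so age was the only labelled difference. The 12 mice are different animals, and sex is not given in the labels. The TA is a fast muscle at the front of the lower leg, and each library holds RNA of every cell type in the dissected piece.

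Imprinted genes are transcribed mainly from a single parental copy, which is set by DNA methylation laid down in the egg or sperm. Many act in fetal growth: paternally expressed genes such as *Igf2*, *Mest*, *Plagl1*, *Dlk1* and *Peg3* are mostly linked to more growth, and maternally expressed genes such as *H19*, *Cdkn1c*, *Grb10* and *Igf2r* to restraint. PLAGL1 is a zinc finger factor known to act on other imprinted genes, and *H19* RNA has also been placed in that network. In skeletal muscle of livestock, variants at the *Igf2* and the *Dlk1*-*Meg3* regions are known to alter muscle mass. The counts sum both parental copies, so nothing here measures which copy was used.

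*H19*, *Igf2* and *Mest* carry well known microRNAs, which are shown because each is cut from, or lies within, a member RNA. The mature sequences come from the RefSeq tables of GRCm38.p6, written 5′ to 3′ with the seed (bases 2 to 8) in capitals.
miR-675-5p, in *H19*, chr7:142577112-142577133, minus strand: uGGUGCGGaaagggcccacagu
miR-675-3p, in *H19*, chr7:142577078-142577099, minus strand: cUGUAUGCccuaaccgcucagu
miR-483-5p, in *Igf2*, chr7:142654968-142654989, minus strand: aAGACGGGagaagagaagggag
miR-483-3p, in *Igf2*, chr7:142654932-142654952, minus strand: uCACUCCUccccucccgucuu
miR-335-5p, in *Mest*, chr6:30741314-30741336, plus strand: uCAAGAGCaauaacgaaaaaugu
miR-335-3p, in *Mest*, chr6:30741354-30741375, plus strand: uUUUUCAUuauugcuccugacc
With the 3 mature microRNAs that lie in *Meg3*, the members hold 9, and the 9 seeds all differ. The libraries were made from poly(A) RNA and do not measure mature microRNAs. In the count table the *Mir483* row held 225 to 1022 reads per library before birth, 4 to 26 in mice of 2 wks and 0 to 2 in those of 7 wks, and the *Mir335* row held 192 to 295, 4 to 7 and 0. The *Mir675* row held 0 reads in all 12 libraries, but it shares 84 exonic bases with *H19* on the same strand. *Mir483* and *Mir335* share 0 exonic bases with their hosts. The *Mir770* and *Mir1906-1* rows, which share exonic bases with *Meg3*, also held 0. How the counting treated reads on both genes is not given in the sources used here, so these 0 values do not show absence.

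The RefSeq promoter table holds 15 windows for 8 of the 10 genes, each running from 250 bases before to 50 bases after a transcript start (300 bases, GRCm38.p6). The genes without a window are *H19* and *Cdkn1c*. Each window was searched on both strands for TGCCGC, the methylated hexamer bound by ZFP57 at imprinting control regions, and for GCCATNTT, the core of the YY1 site. TGCCGC was in 6 of the 15 windows, 2 of which overlap at *Mest*, and in 11.6% of all 32851 windows of the same length. GCCATNTT was in 0 of the 15 and in 6.05% of all windows. The median number of CpG pairs was 13 over the 15 windows and 7 over all windows. The windows below are those of the genes with the 2 largest total falls among the windows with the hexamer, the maternally expressed *Meg3*, and *Igf2r*, whose level differed least with age. They are printed in the direction of transcription, with TGCCGC or its reverse complement in capitals.
*Plagl1*, chr10:13090582-13090881, plus strand, 26 CpG: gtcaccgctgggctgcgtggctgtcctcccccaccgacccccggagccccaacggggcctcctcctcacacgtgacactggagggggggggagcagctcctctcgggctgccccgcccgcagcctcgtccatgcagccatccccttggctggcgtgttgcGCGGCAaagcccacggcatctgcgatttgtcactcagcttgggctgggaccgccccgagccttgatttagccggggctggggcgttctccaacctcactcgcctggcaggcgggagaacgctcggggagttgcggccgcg
*Mest*, chr6:30737800-30738099, plus strand, 17 CpG: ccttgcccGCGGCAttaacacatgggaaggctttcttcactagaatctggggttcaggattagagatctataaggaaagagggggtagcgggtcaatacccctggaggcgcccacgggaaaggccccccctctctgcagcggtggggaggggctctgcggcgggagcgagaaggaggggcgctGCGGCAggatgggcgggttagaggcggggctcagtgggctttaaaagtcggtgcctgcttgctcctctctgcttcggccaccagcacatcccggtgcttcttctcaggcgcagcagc
*Meg3*, chr12:109540746-109541045, plus strand, 13 CpG: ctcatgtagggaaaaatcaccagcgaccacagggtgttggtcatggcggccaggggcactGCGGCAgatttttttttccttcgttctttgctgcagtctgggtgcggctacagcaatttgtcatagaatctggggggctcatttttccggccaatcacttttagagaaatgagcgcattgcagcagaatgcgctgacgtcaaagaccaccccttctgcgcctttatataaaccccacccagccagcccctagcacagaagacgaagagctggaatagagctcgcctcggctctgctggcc
*Igf2r*, chr17:12769657-12769956, minus strand, 34 CpG: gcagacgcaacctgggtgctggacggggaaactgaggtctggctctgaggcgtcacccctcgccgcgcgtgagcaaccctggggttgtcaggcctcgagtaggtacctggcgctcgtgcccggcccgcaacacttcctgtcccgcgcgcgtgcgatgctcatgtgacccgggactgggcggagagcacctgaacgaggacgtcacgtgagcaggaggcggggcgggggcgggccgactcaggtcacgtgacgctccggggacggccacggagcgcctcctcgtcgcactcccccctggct
*Mest* has 2 copies of the hexamer in its window, *Plagl1* and *Meg3* have 1 each, and the *Igf2r* window has 0. The windows of *Dlk1*, the gene with the largest total fall, and of *Peg3* also have 0. *Mest*, *Igf2*, *Grb10* and *Meg3* have further windows with 0. Whether the hexamer goes with the fall was not tested. A match is a string of letters and does not show binding, and methylation was not measured here.

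Libraries held 63018968 to 123449246 counts. The 20 genes highest over all libraries took 8.38 to 11.3% of the counts before birth, 32.2 to 35.3% in mice of 2 wks and 36.3 to 37.7% in those of 7 wks. Counts were therefore scaled by TMM, which corrects for such genes. Levels below are TMM-scaled counts per 1e6 reads (CPM) per mouse, in the order of replicates 1 to 4. Scaling by total count instead moved the median log2 fold change of all genes from -0.09 to -1.02 between E18.5 and 2 wks. Leaving the 20 most abundant and the mitochondrial genes out of the scaling gave -0.57. The 5 muscle fibre markers (*Ckm*, *Acta1*, *Myh4*, *Ttn*, *Des*) summed to 6618 to 13400 CPM before birth, 106927 to 129395 in mice of 2 wks and 112341 to 135843 in those of 7 wks, so fibre RNA was present at each age. Other cells moved with age too. Dividing cell markers summed to 371 to 550, 68.1 to 139 and 2.63 to 12.7 CPM, and the fibroblast markers to 5615 to 11753, 4207 to 5804 and 730 to 3446 CPM. Muscle precursor markers (*Pax7*, *Myf5*, *Myod1*, *Myog*, *Mymk*) summed to 129 to 246, 74.0 to 154 and 26.7 to 41.4 CPM. The part of these cell types in the values below was not tested, and in whole muscle fewer cells of a type and less RNA per cell cannot be told apart.

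All 10 genes were lower at 7 wks than at E18.5, by 2.35-fold for *Igf2r* to 392-fold for *Dlk1*. Together they took 2.26 to 3.12% of all counts before birth, 0.418 to 0.960% in mice of 2 wks and 0.0893 to 0.126% in those of 7 wks. The 4 mice at 2 wks all lay below the fetal mice in 9 of the 10 genes, beside 32.4% of all genes. At 7 wks they did so in 10 of 10, beside 33.3%. These counts describe the list as it was picked. Between 2 and 7 wks, 7 of the 8 genes tested fell (adjusted p under 0.05, edgeR), with 13.9% of all genes falling and 27.5% changing in either direction. In these 7 all mice at 7 wks lay below all at 2 wks, beside 16.4% of all genes. The median log2 fold change of the 8 was -2.48 in that interval, beside -0.03 for all genes. Since the 8 were picked with earlier results of these data known, their tests may not be independent of the choice.

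**Figure D1:**
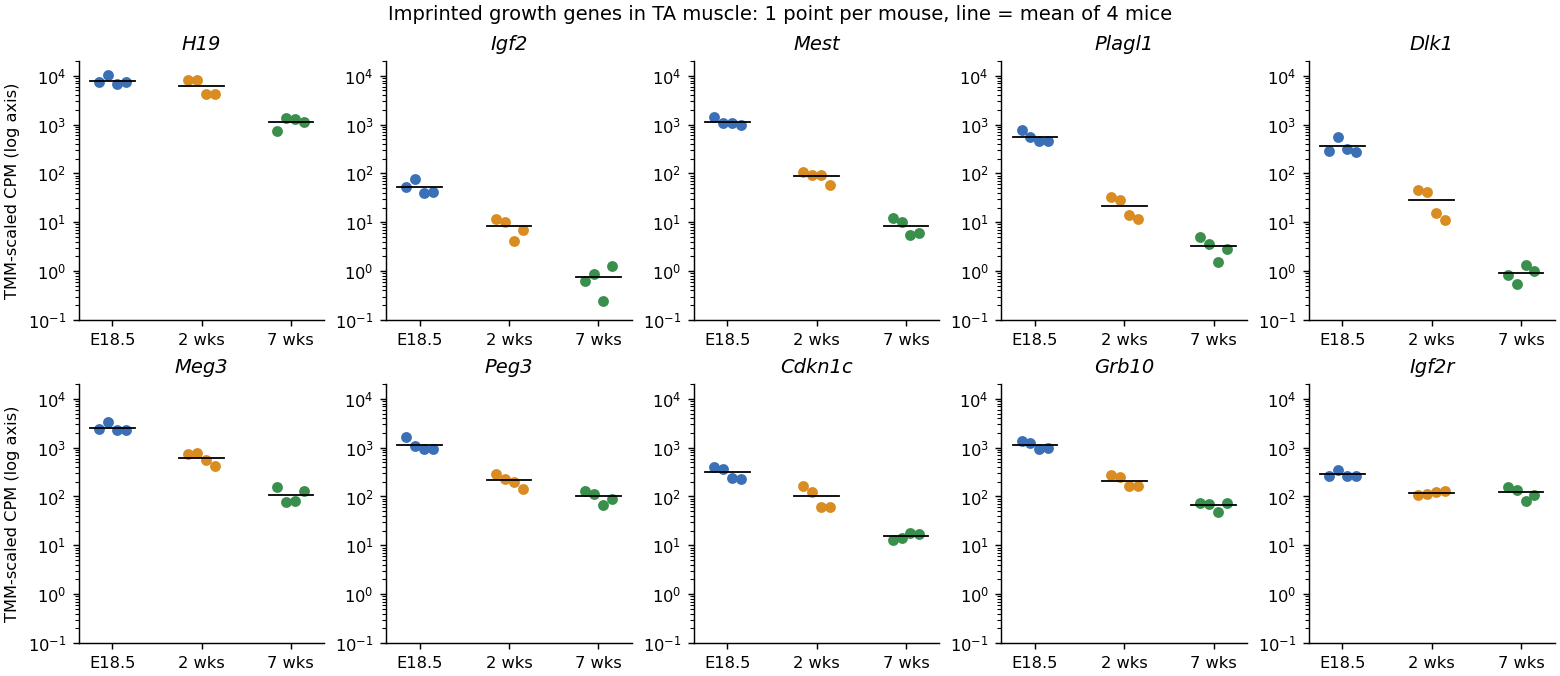
Levels of the 10 genes in each mouse. The y axis is TMM-scaled CPM on a log scale, the x axis is age, points are mice (4 per age) and the line is the mean. Points of E18.5 lie above those of 2 wks for all genes except *H19*, and points of 2 wks lie above those of 7 wks for all except *Igf2r*.

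The ligand *Igf2* encodes insulin-like growth factor 2, the main growth factor of this family before birth. Its level was 51.9, 77.4, 40.6 and 41.0 CPM before birth, 11.6, 10.1, 4.19 and 6.83 CPM in mice of 2 wks and 0.622, 0.885, 0.245 and 1.27 CPM in those of 7 wks. No mouse of an age overlapped with a mouse of another. The means were 52.7 ± 17.3, 8.19 ± 3.33 and 0.755 ± 0.432 CPM (SD, n = 4). Its log2 fold change was -2.69 ± 0.40 (SE) to 2 wks and -3.44 ± 0.43 from 2 to 7 wks (adjusted p = 0.00013, edgeR). At 7 wks these levels rest on 16 to 77 reads per library. *Igf2* (ENSMUSG00000048583, GRCm39 chr7:142204503-142220694, minus strand) shares 58.4% of its exonic bases with *Gm49394* on the same strand, a gene given only 0 to 51 reads. How the counting treated reads on both genes is not given in the sources used here, so the level of *Igf2* relative to other genes is uncertain. *Igf2* was measured the same way at each age, but whether the share of its reads on those bases differed with age was not measured.

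*Dlk1* (ENSMUSG00000040856, GRCm39 chr12:109418749-109429262, plus strand) encodes a membrane-bound and shed relative of Notch ligands that is found on fetal muscle and fat precursors. It was at 294, 558, 323 and 270 CPM in the fetal mice, 45.6, 42.4, 15.7 and 11.0 CPM at 2 wks and 0.822, 0.543, 1.32 and 0.989 CPM at 7 wks. The 3 ages did not overlap, and the lowest mouse at 2 wks was still above every mouse at 7 wks. This gave log2 fold changes of -3.66 ± 0.45 to 2 wks and -4.96 ± 0.50 afterwards (adjusted p = 2.69e-05, edgeR), the largest fall of the 8 genes tested. Only 0.208% of all genes had a larger fall from 2 to 7 wks.

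*Igf2r* (ENSMUSG00000023830, GRCm39 chr17:12901293-12988614, minus strand), the receptor that takes IGF2 to the lysosome for breakdown, took another course. It was at 262, 354, 260 and 263 CPM before birth, 109, 111, 125 and 129 CPM in mice of 2 wks and 155, 137, 82.1 and 110 CPM in those of 7 wks. Fetal mice lay above all older mice, and the mice at 2 and 7 wks were mixed. On the log2 scale the difference was -1.26 ± 0.19 to 2 wks and 0.03 ± 0.19 from 2 to 7 wks (adjusted p = 0.930, edgeR), so no change was detected in that interval. The sign of the later difference depended on the scaling: it was -0.31 with total counts, -0.23 with the most abundant and mitochondrial genes left out of the scaling, and 0.20 with a GC trend removed, and none of these was past the threshold.

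*Grb10* and *Cdkn1c* encode inhibitors inside the cell. GRB10 is an adaptor that dampens insulin and IGF1 receptor signalling, and p57, the product of *Cdkn1c*, blocks cyclin-dependent kinases and holds muscle precursors out of the cell cycle. *Grb10* (ENSMUSG00000020176, GRCm39 chr11:11880498-11988683, minus strand) was at 1365, 1223, 922 and 999.7 CPM in the fetal mice, 273, 249, 165 and 161 CPM at 2 wks and 75.0, 70.0, 48.9 and 72.6 CPM at 7 wks. Its log2 fold change was -2.41 ± 0.23 to 2 wks and -1.67 ± 0.22 after (adjusted p = 0.000181, edgeR). *Cdkn1c* (ENSMUSG00000037664, GRCm39 chr7:143012069-143014806, minus strand) was at 405, 370, 237 and 230 CPM before birth, 163, 123, 60.7 and 62.0 CPM in mice of 2 wks and 12.9, 14.3, 18.2 and 17.2 CPM in those of 7 wks. Neither gene overlapped between ages, and for *Cdkn1c* the later interval was the larger, with -1.60 ± 0.31 to 2 wks and -2.71 ± 0.32 after (adjusted p = 8.98e-05, edgeR). An antisense gene, *Gm44732*, covers 29.0% of the exonic bases of *Cdkn1c* and had 1 to 58 reads per library.

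*Plagl1* and *Peg3* encode zinc finger proteins. *Plagl1* (ENSMUSG00000019817, GRCm39 chr10:12936248-13007438, plus strand) was at 792, 561, 461 and 457 CPM in the fetal mice, 32.3, 28.0, 13.8 and 11.4 CPM at 2 wks and 4.95, 3.54, 1.53 and 2.89 CPM at 7 wks. The ages stood well apart, with means of 568 ± 157, 21.4 ± 10.3 and 3.23 ± 1.42 CPM (SD, n = 4). In log2 terms the change was -4.73 ± 0.42 to 2 wks, as the choice of this gene would have it, and -2.73 ± 0.39 after, both given as description. *Peg3* (ENSMUSG00000002265, GRCm39 chr7:6706882-6733468, minus strand), whose protein has been linked to growth and to maternal behaviour, was at 1690, 1060, 951 and 943 CPM before birth, 290, 225, 196 and 142 CPM in mice of 2 wks and 131, 113, 66.2 and 90.4 CPM in those of 7 wks. Its highest mouse at 7 wks lay just under the lowest at 2 wks. The log2 fold change was -2.44 ± 0.28 to 2 wks and -1.09 ± 0.27 after (adjusted p = 0.00929, edgeR), the smallest fall that passed the test among the members.

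*Mest* (ENSMUSG00000051855, GRCm39 chr6:30723546-30752058, plus strand) encodes a protein of the alpha/beta hydrolase family and marks mesoderm in the embryo. It was at 1427, 1101, 1063 and 996 CPM in the fetal mice, 106.6, 90.8, 93.5 and 58.6 CPM at 2 wks and 12.3, 10.1, 5.56 and 6.07 CPM at 7 wks. Each age lay clear of the others. The log2 fold change was -3.71 ± 0.29 to 2 wks and -3.36 ± 0.28 after, so the differences in the 2 intervals were of like size. *Copg2*, which runs on the opposite strand and covers 47.7% of the exonic bases of *Mest*, fell by 1.27 on the log2 scale to 2 wks (adjusted p = 1.73e-05, edgeR) and was at -0.01 afterwards (adjusted p = 0.971). The library kit keeps the strand, but the strand setting of the counting is not given in the sources used here.

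The non-coding RNAs *H19* and *Meg3* had the highest mean CPM of the 10 genes at E18.5 and 2 wks, and at 7 wks *H19* was followed by *Igf2r*. *H19* (ENSMUSG00000000031, GRCm39 chr7:142129262-142133957, minus strand) was at 7594, 10199, 6730 and 7373 CPM before birth, 8355, 8265, 4159 and 4161 CPM in mice of 2 wks and 731, 1392, 1301 and 1147 CPM in those of 7 wks. Mice at E18.5 and 2 wks overlapped, and in only 10 of the 16 pairs was the 2 wks mouse the lower. The log2 fold change to 2 wks was -0.35 ± 0.29 with TMM scaling, -1.25 with total counts and -1.03 with a GC trend removed. From 2 to 7 wks *H19* fell by 2.45 ± 0.30 on the log2 scale (adjusted p = 0.00012, edgeR), with all mice at 7 wks below all at 2 wks. *Meg3* (ENSMUSG00000021268, GRCm39 chr12:109506877-109538165, plus strand) was at 2369, 3373, 2267 and 2308 CPM in the fetal mice, 753, 782, 564 and 413 CPM at 2 wks and 154, 76.7, 81.9 and 127 CPM at 7 wks. The ages did not overlap, with a log2 fold change of -2.04 ± 0.27 to 2 wks and -2.52 ± 0.28 after (adjusted p = 5.45e-05, edgeR).

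**Figure D2:**
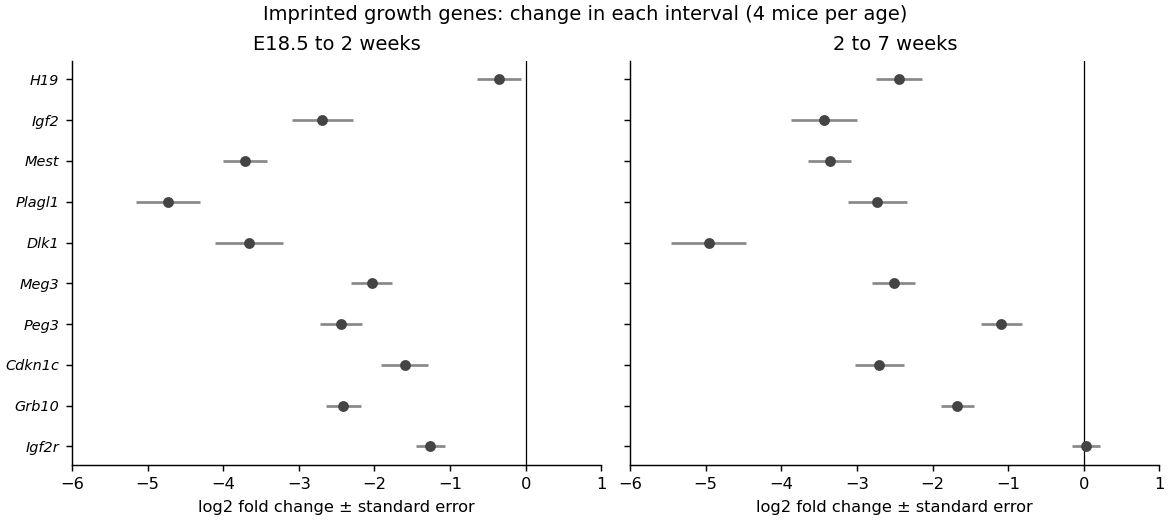
Log2 fold change of each of the 10 genes from E18.5 to 2 wks (left) and from 2 to 7 wks (right), with bars of ± 1 standard error from the edgeR fit of 4 mice per age. *H19* sits near 0 only on the left (-0.35) and *Igf2r* only on the right (0.03).

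The genes thus differed in when the difference arose. Of the log2 change between E18.5 and 7 wks, the part reached by 2 wks was 12.7% for *H19*, 37.2% for *Cdkn1c*, 42.4% for *Dlk1*, 43.9% for *Igf2*, 44.7% for *Meg3*, 52.5% for *Mest*, 59.1% for *Grb10*, 63.4% for *Plagl1*, 69.1% for *Peg3* and 102.2% for *Igf2r*. These shares are descriptions on the TMM scale, and the differences between genes were not tested. For *H19* the share was 30.6% with total counts and 33.1% with a GC trend removed, and with 1 library left out it ran from 6.93% (without 2 wks replicate 4) to 18.3% (without 2 wks replicate 2). For *Cdkn1c* it ran from 37.2 to 56.9% over the alternatives with all libraries.

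Levels of different genes were compared per kilobase of exonic length. At E18.5 *H19* stood far above the rest, at 2800 ± 537 CPM per kb (SD, n = 4). *Cdkn1c* (144), *Mest* (142), *Meg3* (134), *Grb10* (110), *Peg3* (85.0), *Plagl1* (66.4) and *Dlk1* (59.9 CPM per kb) followed, and each overlapped with its neighbour in this order. *Igf2r* (30.4) and *Igf2* (8.56 CPM per kb) lay below, each clear of the gene above it. The place of *Igf2* is uncertain at each age, since 58.4% of its exonic bases are shared with *Gm49394* and may not have been counted. At 2 wks *H19* (2189 ± 841 CPM per kb) again stood apart, and below it each gene overlapped with the next, from *Cdkn1c* (47.5) through *Igf2r* (12.7) to *Igf2* (1.33 CPM per kb). At 7 wks *H19* was still the highest, at 401 ± 103 CPM per kb. *Igf2r* was next, at 12.9 CPM per kb, and among the genes below it only *Peg3* (7.32) overlapped with it. *Peg3*, *Cdkn1c* (7.26), *Grb10* (6.50) and *Meg3* (5.69 CPM per kb) each overlapped with the next in order. *Mest* (1.05) was clear of them, and *Plagl1* (0.377), *Dlk1* (0.152) and *Igf2* (0.123 CPM per kb) overlapped at the bottom.

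The 4 mice at 2 wks were not alike. In 8 of the 10 genes (*H19*, *Igf2*, *Plagl1*, *Dlk1*, *Meg3*, *Peg3*, *Cdkn1c* and *Grb10*) replicates 1 and 2 were both above replicates 3 and 4, a pattern seen after the values were known. Over all genes, replicates 1 and 2 were also the most alike pair at 2 wks (chi-square per degree of freedom 34.3, other pairs 134 to 366). The share of all genes with this order was not counted at any age, so it is not shown to be particular to the members. The muscle precursor markers summed to 154, 132, 85.7 and 74.0 CPM in the same mice, and the red blood cell markers to 477, 756, 146 and 148 CPM. The muscle fibre markers ran the other way, at 112550, 106927, 129395 and 122612 CPM. Nerve, macrophage and epidermis markers also had replicates 1 and 2 above 3 and 4. The dividing cell, fibroblast, endothelium, adipocyte, and cartilage and bone markers did not split this way. The same order held at E18.5 in 8 of the 10 genes (all except *Dlk1* and *Igf2r*) and at 7 wks in 4. At E18.5 the adipocyte markers (*Adipoq*, *Plin1*, *Fabp4*, *Cidec*, *Lep*, *Retn*) split the libraries the other way, at 232, 179, 1971 and 2699 CPM. With E18.5 replicates 3 and 4 left out, the log2 fold change to 2 wks was -1.92 for *Cdkn1c* and -0.51 for *H19*. With replicates 1 and 2 left out it was -1.19 and -0.17. This split was chosen after seeing these values. *Cdkn1c* and *H19* were the members whose change to 2 wks moved by over 1.5 times between the 2 fits. In log2 units *Igf2* (-2.98 and -2.31), *Plagl1* (-4.98 and -4.42), *Peg3* (-2.69 and -2.15), *Dlk1* (-3.90 and -3.37) and *Grb10* (-2.61 and -2.18) moved by more than *H19*. The part of these cells in the patterns was not tested. With any 1 mouse left out, the same number of members (7) passed the test from 2 to 7 wks.

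Ratios of counts within a library do not depend on scaling. *H19* and *Igf2* share enhancers and are used from opposite parental copies, as are *Meg3* and *Dlk1*. The log2 ratio of *Meg3* to *Dlk1* was 3.01, 2.60, 2.81 and 3.10 at E18.5, 4.05, 4.21, 5.17 and 5.23 at 2 wks and 7.55, 7.14, 5.96 and 7.00 at 7 wks. It was higher at 7 than at 2 wks by 2.25 (two-sided exact permutation test, 70 regroupings, p = 0.0286, the smallest 4 against 4 allow, 0.0429 adjusted over 3 ratios). Without 2 wks replicate 1 or 2 the difference was 2.04 or 2.10 and the exact p, now 0.0571, was no longer under 0.05. The log2 ratio of *Igf2r* to *Igf2* was 2.33, 2.19, 2.68 and 2.68 at E18.5, 3.22, 3.46, 4.90 and 4.24 at 2 wks and 7.96, 7.27, 8.39 and 6.43 at 7 wks. It was higher at 7 wks by 3.56 (exact permutation test, p = 0.0286, adjusted p = 0.0429), so the receptor's reads rose relative to those of its ligand.

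The log2 ratio of *H19* to *Igf2* was 7.19, 7.04, 7.37 and 7.49 at E18.5, 9.49, 9.68, 9.96 and 9.25 at 2 wks and 10.20, 10.62, 12.37 and 9.82 at 7 wks. The difference of 1.16 between 2 and 7 wks did not pass (exact permutation test, p = 0.0571, adjusted p = 0.0571), since the lowest mouse at 7 wks lay below the highest at 2 wks. Without 7 wks replicate 4 it was 1.47 (exact permutation test, p = 0.0286). Levels of *Igf2* at 7 wks rest on few reads, and the shared bases with *Gm49394* bear on the size of both ratios that include *Igf2*.

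**Figure D3:**
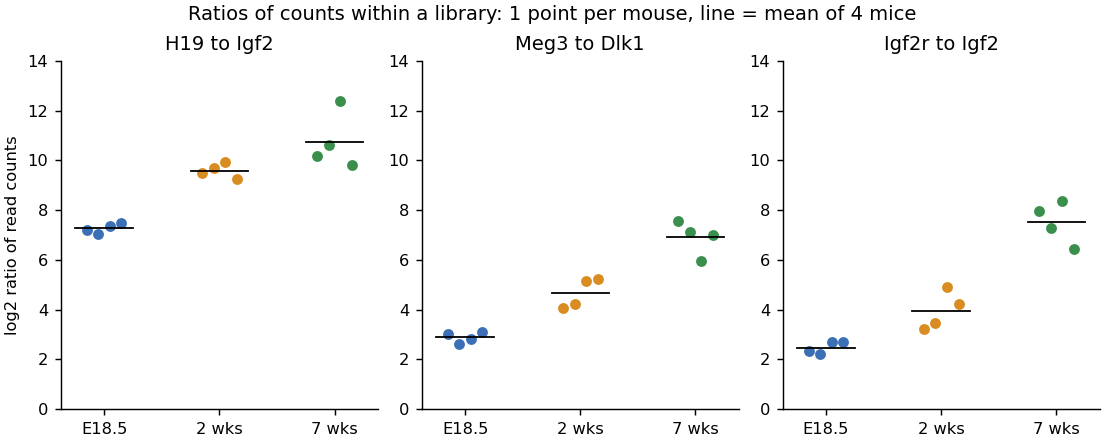
Log2 ratio of read counts within each library for 3 pairs of genes, by age. Points are mice (4 per age) and lines are means. The means are 7.27, 9.59 and 10.75 for *H19* to *Igf2*, 2.88, 4.66 and 6.91 for *Meg3* to *Dlk1*, and 2.47, 3.96 and 7.51 for *Igf2r* to *Igf2*.

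Other imprinted genes were taken as a list of 46, of which 45 were in the table and 41 were tested. The list was drawn from general knowledge, with earlier results of these data known. From E18.5 to 2 wks 27 fell and 10 rose, with a median log2 fold change of -1.27 beside -0.09 for all genes, of which 34.2% fell and 31.5% rose (65.7% in either direction). From E18.5 to 7 wks 25 fell and 5 rose, beside 37.1% and 34.3% of all genes (71.4% in either direction). From 2 to 7 wks 17 fell and 6 rose, with a median of -0.58 beside -0.03 (all genes 13.9% and 13.5%). The split depended on scaling: with total counts 32 fell and 2 rose to 2 wks and 23 fell and 3 rose after, and with the most abundant and mitochondrial genes left out of the scaling 28 fell and 4 rose, then 23 and 3. With a GC trend removed 14 fell and 9 rose after 2 wks. Of all 19276 genes, 11917 fell and 2552 rose to 2 wks with total counts, then 5391 and 948. With the most abundant and mitochondrial genes left out, 9516 of all genes fell and 3977 rose, then 4577 and 1174. After 2 wks 2330 of all genes fell and 4735 rose with a GC trend removed. Of 20 paternally expressed genes tested, 17 fell and 3 rose to 2 wks, and of 18 maternally expressed genes 9 fell and 7 rose. The difference between these groups was not tested.

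Among genes of the list whose log2 CPM averaged 1 or more over all 12 libraries, a bound that leaves out genes that fell to near 0, the largest falls to 2 wks were those of *Peg10*, *Igf2os*, *Usp29*, *Zim1* and *Ppp1r9a*. *Peg10*, a gene derived from a retrotransposon and needed in the placenta, was at 409 to 881 CPM at E18.5 and 3.28 to 6.30 CPM at 2 wks, a log2 fold change of -6.88 ± 0.36 (adjusted p = 9.98e-09, edgeR). *Igf2os*, the antisense partner of *Igf2*, had a log2 fold change of -4.81 ± 0.36 to 2 wks and -2.86 ± 0.39 after. *Usp29* and *Zim1*, the neighbours of *Peg3*, had -3.83 ± 0.26 and -3.47 ± 0.36 to 2 wks. *Zim1* went on falling, by 1.84 on the log2 scale, while *Usp29* was at -0.48 and did not pass. Of the genes under the bound, *Rtl1*, *Magel2* and *Klf14* had falls larger than some of these. *Rtl1*, which lies beside *Meg3* on chromosome 12, was at 117 to 199 CPM at E18.5 and 0.103 to 0.268 CPM at 2 wks (log2 fold change -9.84 ± 0.44, adjusted p = 2.55e-09, edgeR), and it did not pass the test afterwards (0.16 ± 0.46, adjusted p = 0.833). *Magel2*, a MAGE gene beside *Ndn*, went from 30.5 to 50.3 CPM at E18.5 to 0.0914 to 0.570 CPM at 2 wks, or 7 to 34 reads per library (-6.95 ± 0.46, adjusted p = 7.55e-08, edgeR). *Klf14*, a zinc finger gene near *Mest*, had -4.15 ± 0.39 (adjusted p = 1.37e-06, edgeR).

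After 2 wks the largest falls within the same bound were those of *Ddc*, *Igf2os*, *Mirg*, *Ndn* and *Rian*. Under it, *Magel2* had -2.92 ± 0.65 (0 to 4 reads per library at 7 wks) and *Klf14* -2.33 ± 0.44 (3 to 14 reads), both past the threshold. *Ddc*, the neighbour of *Grb10* that encodes the enzyme making dopamine and serotonin, was at 16.8, 10.6, 1.94 and 1.72 CPM at 2 wks and 0.361 to 0.613 CPM at 7 wks (-3.91 ± 0.65, adjusted p = 0.000893, edgeR). *Mirg* and *Rian*, the non-coding RNAs beyond *Meg3* on chromosome 12, had log2 fold changes of -2.08 and -2.99 to 2 wks and -2.65 and -2.05 after, all past the threshold. *Rian* alone took 0.657 to 1.17% of all counts at E18.5 and 0.00516 to 0.0180% at 7 wks. *Ndn*, a relative of the MAGE genes, had -2.08 and -2.06.

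Rises were fewer and smaller. *Snrpn*, which encodes a splicing protein, was at 2.04 to 3.28 CPM at E18.5, 8.77 to 16.3 CPM at 2 wks and 24.3 to 35.3 CPM at 7 wks, and it rose in both intervals (2.07 ± 0.22 and 1.21 ± 0.21) under all 6 scalings and tools compared. *Commd1* rose by 1.54 ± 0.24 to 2 wks and kept its call under these 6. *Mcts2* (1.11), *Tssc4* (1.09) and *Slc22a3* (1.07) rose too, but with total counts their values were 0.18, 0.15 and 0.13 and the call was lost, and *Tssc4* also lost it with a GC trend removed (0.21). From 2 to 7 wks *Asb4* (1.08), *Blcap* (0.92), *Ube3a* (0.80) and *Peg13* (0.77) rose, and their values were above 0 under each scaling. *Asb4* and *Peg13* were past the threshold under all 6, and *Blcap* and *Ube3a* under 4, with 0.58 and 0.46 under total counts. With TMM scaling *Asb4* (-1.44) and *Ube3a* (-0.70) had first fallen to 2 wks. From E18.5 to 7 wks *Asb4*, *Blcap* and *Ube3a* did not pass (adjusted p = 0.257, 0.206 and 0.693, edgeR), while *Peg13* did (1.52, adjusted p = 9.2e-07).

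**Figure D4:**
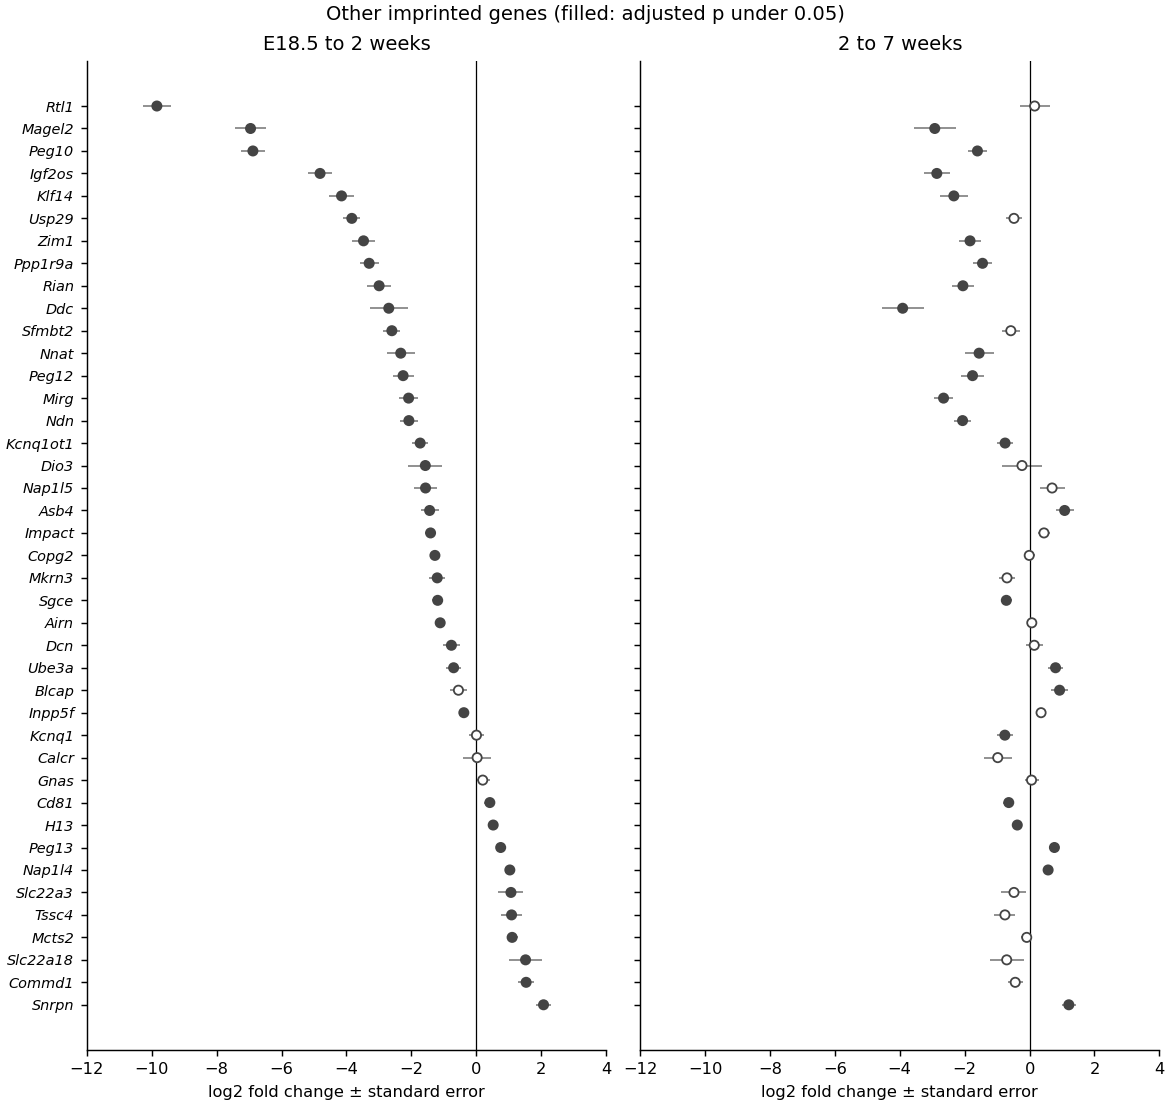
Log2 fold change of the 41 other imprinted genes tested, from E18.5 to 2 wks (left) and from 2 to 7 wks (right), with bars of ± 1 standard error. Filled points are past an adjusted p of 0.05 (edgeR), 37 on the left and 23 on the right, and genes are ordered by the left panel.

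Imprinted genes lie in clusters. Within 1 Mb of a member, 18 other imprinted genes were tested: 12 fell and 5 rose to 2 wks, then 9 fell and 1 rose. Of the 23 tested farther away, 15 fell and 5 rose to 2 wks, then 8 fell and 5 rose. Of all genes 34.2% fell and 31.5% rose to 2 wks, then 13.9% and 13.5%. The difference between near and far genes was not tested. *Airn*, the antisense RNA that silences the paternal *Igf2r* copy, was at 12.5 to 17.9 CPM at E18.5, 6.06 to 6.97 CPM at 2 wks and 6.28 to 7.24 CPM at 7 wks. Its log2 fold changes of -1.11 ± 0.15 (adjusted p = 2.47e-05, edgeR) and 0.07 ± 0.15 (adjusted p = 0.768) stood beside -1.26 and 0.03 for *Igf2r*. *Kcnq1ot1*, the RNA that acts the same way on *Cdkn1c* and its neighbours, fell by 1.73 and by 0.75 on the log2 scale. In that cluster *Nap1l4* rose in both intervals (1.03 and 0.57), with values of 0.10 and 0.23 and no call under total counts.

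The 17 nearest tested protein-coding genes outside both lists, on either side of each member, were looked at for comparison. To 2 wks 9 fell and 4 rose, so 13 of 17 were called beside 65.7% of all genes. After 2 wks 4 fell and 1 rose, 5 of 17 beside 27.5%. The 9 include *Gm49394* (-4.03 ± 0.71), which shares exonic bases with *Igf2* on the same strand and so may not be a separate neighbour. *Trpm5*, on the lower-coordinate side of *Cdkn1c*, had the largest fall to 2 wks (-6.78 ± 0.50). With total counts 13 fell and 2 rose to 2 wks, and with a GC trend removed 7 fell and 6 rose, then 5 and 4. Of all 19276 genes, 11917 fell and 2552 rose to 2 wks with total counts. With a GC trend removed 5704 of all genes fell and 6766 rose, then 2330 and 4735. *Mrpl23*, which encodes a mitochondrial ribosomal protein and lies 34776 bases from *H19*, rose by 1.64 ± 0.20 to 2 wks, and *Sf3b5*, a splicing factor gene beside *Plagl1*, rose by 2.40 ± 0.43. Both had values above 0 under each scaling. *Cep41*, a centrosomal gene beside *Mest*, fell by 3.35 ± 0.26, and *Fignl1*, a DNA repair gene beside *Grb10*, fell by 2.80 and by 2.57 on the log2 scale in the 2 intervals. *Begain*, on the near side of *Dlk1*, fell by 1.20 and by 2.69. Neighbours thus differed in direction.

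Partners of the IGF pathway that are not known as imprinted were examined in a list of 14, of which 13 were tested. To 2 wks 7 fell and 1 rose, so 61.5% were called beside 65.7% of all genes, and from 2 to 7 wks 4 fell and 1 rose, 38.5% beside 27.5%. With total counts 11 fell and 1 rose to 2 wks and 9 fell and 0 rose after. Under that scaling 11917 of all 19276 genes fell and 2552 rose to 2 wks, then 5391 and 948. *Igf1*, the ligand that acts alongside IGF2, was at a mean of 265 CPM at E18.5 and 48.1 CPM at 2 wks (log2 fold change -2.46 ± 0.37, adjusted p = 6.91e-05, edgeR), and it did not pass afterwards (-0.73). The receptor gene *Igf1r* fell by 1.37 ± 0.16 to 2 wks. The RNA-binding proteins that take their name from *Igf2* RNA fell in the same interval, by 8.25 ± 0.29 for *Igf2bp1*, 4.98 ± 0.44 for *Igf2bp3* and 2.68 ± 0.42 for *Igf2bp2* on the log2 scale. The binding protein gene *Igfbp6* was the gene that rose (2.65 ± 0.38), and *Insr*, the insulin receptor, rose after 2 wks (0.77 ± 0.24, adjusted p = 0.029, edgeR). With total counts *Insr* was at 0.44 and lost its call.

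Relatives of the members that are not known as imprinted were also compared. Of 8, 4 fell and 1 rose to 2 wks (62.5% called, beside 65.7% of all genes), and 1 was called after 2 wks (12.5%, beside 27.5%). With total counts 6 fell and 1 rose to 2 wks and 4 fell after. Under that scaling 11917 of all 19276 genes fell and 2552 rose to 2 wks, then 5391 and 948. *Plag1* and *Plagl2*, the relatives of *Plagl1*, fell by 3.66 ± 0.45 and 1.22 ± 0.18 on the log2 scale. *Grb14*, the relative of *Grb10*, rose by 2.28 ± 0.20 to 2 wks and by 0.63 ± 0.19 after, so it was at a mean of 9.34 CPM at E18.5 and 70.1 CPM at 7 wks while *Grb10* went from 1128 to 66.6 CPM. The rise to 2 wks was past the threshold under all 6 scalings and tools compared, and the later one under 4. For the inhibitors related to *Cdkn1c*, *Cdkn1a* fell by 1.28 ± 0.20 and *Cdkn1b* was at -0.12 ± 0.16 (adjusted p = 0.512, edgeR). *M6pr*, the other mannose 6-phosphate receptor, was at -0.36 ± 0.11 (adjusted p = 0.011, edgeR), with the opposite sign (0.17) after removal of a GC trend.

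Genes with the course most like each member were found by the root mean square (RMS) difference of log2 CPM, centred on the mean of the 12 libraries, among 8943 genes. *H19* was nearest to *Tmsb10* (RMS 0.33) and to the myogenic factor *Myog* (0.34). *Mest* and *Plagl1* were near each other (0.55), with *Postn* (0.53) nearest to *Mest* and *Capn6* (0.58) second for *Plagl1*. *Igf2* was nearest to the myoblast fusion gene *Mymk* (0.66) and *Dlk1* to *Mest* (0.97), both at a wider distance. *Meg3* was nearest to *Mirg* (0.24), *Cdkn1c* to *Ndn* (0.30), and *Grb10* to *Armcx2* (0.21) and then *Peg3* (0.32). *Peg3* was nearest to *Aspn* (0.21) and *Igf2r* to *Lpin2* (0.13). These distances are descriptions over libraries of 3 ages that all 10 genes share.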

How the data were processed

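TA muscle RNA was purified with TRI Reagent and turned into paired libraries with a stranded poly(A) kit. What the authors deposited is a table of whole-number read counts for Ensembl genes, not normalized. The submitters' processing notes name bcl2fastq 2.17.1.14, cutadapt 1.10, STAR 2.5.3a, HTSeq 0.6.1p1 and the mm10 build, while the study's methods name GRCm39; the annotation, counting mode and strand setting are not given in the sources used here. No deposited value was left out.

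Scaling used TMM. A quasi-likelihood model (edgeR 4.0.16 in R 4.3.3, with limma 3.58.1) took age alone as its term and all 12 libraries together. After filterByExpr, 19276 genes remained, Benjamini-Hochberg adjustment ran over all of them, and 0.05 was the threshold. The biological coefficient of variation was 0.279. Tested on data simulated for E18.5 against 2 wks (19256 genes, 200 changed 2-fold), the fit called 145 of the 200 and 4 unchanged genes. The simulation gave every gene the same spread, smaller than that of the data, and no shift of the most abundant genes. It therefore does not give the error rates of the tests reported here. An edgeR p-value sets the difference between ages against the spread between mice of an age. That spread was estimated from all 12 libraries, with information shared across genes. The exact permutation p-value sets a difference of ratios against all regroupings of the mice compared. Intervals and errors cover neither mapping nor counting choices.

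Gene positions are from GENCODE vM39 (GRCm39), which had no entry for 3973 genes holding 0.0394% of the counts. Sequences are from RefSeq tables of GRCm38.p6. The members and lists were chosen with earlier results of these data known, and *Plagl1* and *Mest* for their falls. The text names all members and the 5 largest rises and falls of other imprinted genes in each interval (from a mean log2 CPM of 1). It also names the gene nearest in course to each member (from a mean log2 CPM of 3) and, for some members, the second nearest. Some of the flanking genes and some list genes are named with their values.

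Replicate numbers occur at every age but mark different mice. The correlations of same-numbered deviations ran from -0.0991 to 0.235 and 2 of 12 were over 0.1, so the numbers were not taken as pairs. No 2 libraries agreed within sampling noise (chi-square per degree of freedom of 34.3 or more). Alternatives were another scaling, other filters, a GC correction, a block, DESeq2 1.42.0 and each library left out.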

Additional observations from a re-analysis of the deposited data

Results flagged for a closer look

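Within an age, 93 sets of 4 mice were examined for a mouse that stood apart, over the 10 members and the named imprinted genes, and 7 were found where chance gives about 4.65 (1 in 20). At E18.5 replicate 2 was high in *Meg3* (3373 CPM, the others 2267 to 2369) and in *Igf2r* (354 CPM, the others 259.8 to 262.9). At E18.5 replicate 1 was high in *Zim1* (905 CPM, the others 474 to 526) and *Ppp1r9a* (113 CPM, the others 67.9 to 73.1). At 7 wks replicate 3 was low in *Grb10* (48.9 CPM, the others 69.95 to 75.0) and high in *Ndn* (8.24 CPM, the others 5.46 to 5.81). At 2 wks replicate 2 was low in *Tssc4* (12.1 CPM, the others 14.2 to 14.6). Muscle fibre markers were highest at E18.5 in the mouse that was high in *Meg3* and *Igf2r* (13400 CPM, the others 6618 to 7944). The same mouse was highest in muscle precursor (246 CPM, the others 129 to 168), fibroblast (11753, the others 5615 to 8370), cartilage and bone (153, the others 24.8 to 62.5) and epidermis markers (35.8, the others 7.01 to 16.4). The part of these tissues was not tested.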

How the results depend on the processing

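Of the 8 members tested from 2 to 7 wks, 7 were called in every alternative run, while intervals from E18.5 carry no test of the members. Other imprinted genes called numbered 30 to 37, 18 to 26 and 26 to 36 in the intervals to 2 wks, after 2 wks and from E18.5 to 7 wks. With the replicate block, members called from 2 to 7 wks were 7, other imprinted genes 36, 23 and 30, and all genes 12470, 5148 and 13611, and the block changed no call of a member. Of 330 values of single members under alternatives other than leaving out 1 library, including 2 chosen after seeing the data (E18.5 replicates 1 and 2 only, and 3 and 4 only), 289 kept their call where tested or, without a test, moved by less than the spread between mice, and 41 untested values moved by more. No called value changed sign. All 360 values with a library left out kept their call where tested or, without a test, moved by less than that spread.

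Leaving out each library gave 3472 to 6146 genes called from 2 to 7 wks, against 5295 with all. The lowest came without 2 wks replicate 1, and it was 3705 without 2 wks replicate 2. For the later interval, differences of log2 ratios with 1 mouse left out were 0.62 to 1.47 for *H19* to *Igf2*, 2.04 to 2.57 for *Meg3* to *Dlk1* and 3.26 to 3.92 for *Igf2r* to *Igf2*. With total counts 2552 genes rose and 11917 fell to 2 wks, against 6074 and 6594, and 948 rose and 5391 fell after, against 2608 and 2687. With a GC trend removed 4735 rose and 2330 fell after 2 wks. The cause was not tested. Among the members, depth limits *Igf2* (16 to 77 reads) and *Dlk1* (35 to 86 reads) at 7 wks most.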
